A study of Mus musculus with 16 samples.

Results

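The genes described here build the outer barrier of the epidermis, the stratified epithelium at the surface of the skin. They were chosen by name: a list of 45 genes, of which 12 are early markers of the spinous layer and 33 are late markers of the granular and cornified layers, and every array probe that carries one of these names. Of the 45 genes, 40 had a probe on the array (50 probes of 25697), and 36 of them (10 early and 26 late) were detected well enough to be tested among 10232 genes. The probes of Krt2, Dsg1a, Lce1h and Lce3a were detected on 0 of 16 arrays and have no level here, and Crct1, Flg, Lce1a1, Lce3f and Spink5 were not analysed here. A count over the 36 tested genes is therefore not a count over all 45.

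Keratinocytes leave the basal layer, stop dividing and change their protein content as they move outward. In the spinous layer they switch to the keratins Krt1 and Krt10 and to secreted proteins such as suprabasin and dermokine. In the granular layer they make the precursors of the cornified envelope (loricrin, involucrin, the late cornified envelope proteins and the large fused S100 proteins), transglutaminases that crosslink these precursors, and lipoxygenases and transporters that supply the lipids between the dead cells. Kallikrein proteases then cut the corneodesmosomes, so that the outermost cells are shed.

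The skin came from the back of 15 day old mice of the mixed strain C57/BL6;129Ola, and each array held total RNA of whole skin. The 4 groups of 4 arrays were control, Shp2lof (Krox20-cre with a floxed gene for Shp2, the phosphatase Ptpn11 that passes receptor signals to Ras and ERK), Mek1gof (Krox20-cre with the Mek1fstop/+ allele; Map2k1 codes for Mek1, which activates ERK) and Double, which carried both. The sources used here do not give the genotype of the control mice or the skin cells in which Krox20-cre acted. Krox20, also called Egr2, is a transcription factor known from Schwann cells and hair follicles. No source says that each sample came from its own animal. The p-values therefore measure the spread between these samples, which may be technical.

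Several properties of the arrays bear on the results. The array names hold a number code and a letter, read here as the slide and the place on it, which no label states. By this reading replicates 1 and 2 of each group lay on one slide (slide 1) and replicates 3 and 4 on another (slide 2). Each group kept the same places on both slides, so position and group cannot be told apart. Between 13022 and 13959 probes were detected per array. Ptpn11 read between 12.74 and 13.15 on the log2 scale on all 16 arrays, in ranges that overlapped between the groups, and Map2k1 read between 5.95 and 7.12, so neither probe told the groups apart. Map2k1 did separate the slides in every group, with 5.95 to 6.62 on slide 1 and 6.71 to 7.12 on slide 2. Krt14, a keratin of the basal layer, read between 14.94 and 15.29 on every array and Krt5, its partner, between 10.82 and 12.02, so the defining basal markers of the labelled tissue were present. In Mek1gof and Double skin the levels of the X-linked Xist went with the slide: it read between 8.82 and 10.04 on the slide 1 arrays and between 5.02 and 6.96 on the slide 2 arrays. Control arrays 1 to 4 read 4.84, 9.49, 4.74 and 9.48, and Shp2lof arrays 1 to 3 read 5.31, 5.09 and 6.12. Xist was thus not balanced between Shp2lof and control skin either, and its part in that comparison was not tested. Shp2lof 4 (Xist 9.12 and the Y-linked Eif2s3y 8.01), Mek1gof 2 (8.82 and 6.77) and Double 4 (6.96 and 4.39) fitted neither of the usual combinations, and results were also computed without these 3 arrays.

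The promoters of late cornified envelope genes are shown because the largest differences lay in that family, and because its members sit side by side in the epidermal differentiation complex of chromosome 3. RefSeq promoter sequences of the build GRCm38.p6, each running from 250 bases before the start of the gene to 50 bases after it, were supplied for 30 of the 36 tested genes. They are printed 5′ to 3′ on the strand of the gene. Capitals mark the TATA box TATAAA and a variant of it, ATAAAAG, which was searched for after these sequences had been read.
Lce1g promoter, chr3:92752289-92752588, minus strand: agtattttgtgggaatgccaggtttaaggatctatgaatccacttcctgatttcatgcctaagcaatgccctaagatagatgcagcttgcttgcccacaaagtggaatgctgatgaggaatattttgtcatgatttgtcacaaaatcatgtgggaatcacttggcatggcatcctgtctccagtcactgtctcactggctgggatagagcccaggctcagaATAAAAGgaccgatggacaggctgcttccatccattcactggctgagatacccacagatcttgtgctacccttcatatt
Lce1i promoter, chr3:92778850-92779149, minus strand: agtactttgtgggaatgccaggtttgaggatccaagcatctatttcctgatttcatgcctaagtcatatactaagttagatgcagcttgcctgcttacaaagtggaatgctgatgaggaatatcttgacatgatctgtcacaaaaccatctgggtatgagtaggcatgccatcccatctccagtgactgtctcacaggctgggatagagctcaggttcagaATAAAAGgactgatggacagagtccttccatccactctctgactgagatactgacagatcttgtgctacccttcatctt
Lce1m promoter, chr3:93019012-93019311, minus strand: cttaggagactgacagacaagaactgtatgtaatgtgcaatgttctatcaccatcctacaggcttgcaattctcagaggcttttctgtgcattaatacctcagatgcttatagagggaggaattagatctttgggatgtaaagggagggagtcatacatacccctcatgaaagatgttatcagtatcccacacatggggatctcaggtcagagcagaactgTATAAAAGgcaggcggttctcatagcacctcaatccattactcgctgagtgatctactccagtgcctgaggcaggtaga
Lce3c promoter, chr3:92944236-92944535, plus strand: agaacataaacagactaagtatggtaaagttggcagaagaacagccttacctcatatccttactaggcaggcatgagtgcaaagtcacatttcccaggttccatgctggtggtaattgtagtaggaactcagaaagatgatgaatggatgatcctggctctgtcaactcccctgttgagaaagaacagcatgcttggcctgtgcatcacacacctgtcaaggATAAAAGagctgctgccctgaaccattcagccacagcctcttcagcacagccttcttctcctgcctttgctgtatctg
The Lce1g and Lce1i promoters were 86.0% identical over a global alignment, the highest identity among the 7 promoters of the family that were supplied. Lce1m shared between 48.8% and 51.9% of its bases with the others, and Lce3c shared 55.8% with Lce3b. Searched on both strands, ATAAAAG stood in 4 of 5 Lce1 promoters and 2 of 2 Lce3 promoters, against 5.42% of all 32851 promoters of the table. In each of these 6 it began 28 or 29 bases before the start of the gene, and in Lce1m it overlapped the TATA box. TATAAA itself stood in 8 of 30 promoters (26.7%, against 13.6% of all promoters), and AACCNGTT, a grainyhead motif, in 2 of 30 (6.67%, against 2.09%). The AP-1 motif TGANTCA stood in 7 of 30 (23.3%, against 7.81%), namely those of Lor, Ivl, Flg2, Rptn, Sbsn, Dmkn and Krtdap, and in 0 of the 7 late cornified envelope promoters. These matches describe letters only.

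In the comparisons over all 16 arrays, 1 of the 36 barrier genes passed the test. Lce1g, a late cornified envelope gene, was 2.08-fold higher in Shp2lof than in control skin. Its neighbours Lce3b and Lce3c had higher means in every mutant group than in control skin, by 1.29 to 2.02 on the log2 scale, and none of these differences passed the test over genes. No other member passed in any comparison. Differences from control over the 36 members ran from -0.38 to 1.57 in Shp2lof, from -0.42 to 1.63 in Mek1gof and from -0.91 to 2.02 in Double skin. Krt10, Lor, Ivl, Tgm1 and Klk7 differed by at most 0.35 in each mutant group. Other markers of the same layers differed more, such as Krt1 (1.13 in Shp2lof), Krt77 (-0.91 in Double) and Rptn (0.74 in Mek1gof). These values average both slides, and the difference of Krt10 in Double skin changed between the slides.

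The test was limma's moderated test on background-corrected, quantile-normalized log2 levels, with p-values adjusted by Benjamini-Hochberg over all 10232 genes and a threshold of 0.05. In Shp2lof against control 1 of 36 members passed, where 2.55% of all genes did. In Mek1gof against control 0 of 36 passed (0.508% of all genes), and in Double against control 0 of 36 (3.88% of all genes). The other comparisons also called no member, with 0 of 36 in Double against Shp2lof (0.968%), in Double against Mek1gof (0.283%), in Mek1gof against Shp2lof (2.76%) and in the interaction (0.088%), the difference Double minus Mek1gof less the difference Shp2lof minus control.

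More members reached an unadjusted p below 0.05. Against control there were 7 of 36 in Shp2lof (15.7% of all genes), 5 in Mek1gof (9.54%) and 6 in Double skin (20.8%). There were 9 in Double against Shp2lof (12.8% of all genes), 8 of them lower in Double skin (6.75% of all genes were). Double against Mek1gof gave 2 (9.85%), Mek1gof against Shp2lof 3 (12.8%) and the interaction 5 (7.17%). All 5 of the interaction (Lce1b, Lce1f, Lce1g, Lce1i and Casp14) were negative, meaning that the level in Double skin lay below the sum of the single mutant differences. The comparisons with control share the control arrays and are not independent of each other.

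The intervals say how large a change could have gone unseen. The 95% interval of the difference lay within a 2-fold change in either direction for 24 of 36 members in Shp2lof skin, for 22 in Mek1gof skin and for 23 in Double skin, against 92.3%, 94.2% and 90.5% of all genes. The barrier genes were thus measured less precisely than most. Their median SD within groups was 0.46 on the log2 scale, where that of all genes was 0.24.

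**Figure D1:**
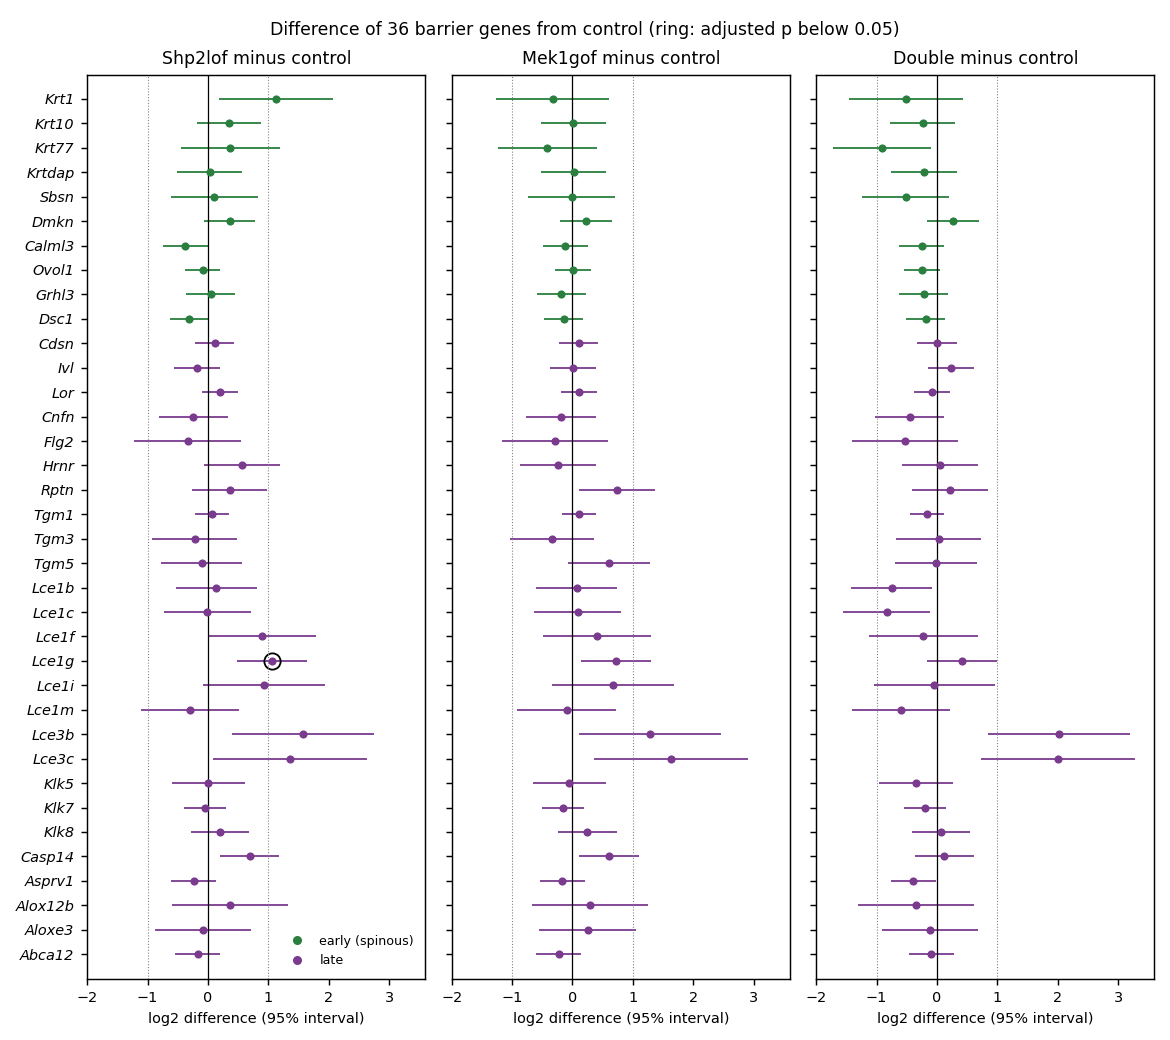
Log2 difference from control (horizontal axis) of the 36 tested barrier genes, with points for the estimate, bars for the 95% interval, green for early and purple for late genes, and dotted lines at a 2-fold change. The only ring, which marks an adjusted p below 0.05, is at Lce1g in Shp2lof skin, and Lce3b and Lce3c lie farthest to the right in all 3 panels.

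As a set, the members had medians near 0 in the single mutants and slightly below 0 in Double skin. The median difference from control was 0.08 in Shp2lof, with 22 of 36 above 0, and 0.02 in Mek1gof, with 21 of 36 above 0, where all genes had medians of 0.02 and 0.02. In Double skin it was -0.19, with 26 of 36 below 0, against 0.03 for all genes. The 10 early members had a median of -0.24 there, with 9 of 10 below 0, and the 26 late members one of -0.09, with 17 below 0. The medians move with single arrays. That of Shp2lof was -0.01 without Shp2lof 1, 0.02 without Shp2lof 2 and 0.19 without Shp2lof 4, and 0.04 to 0.14 without a control array. That of Mek1gof ran from -0.08 without Mek1gof 1 to 0.14 without Mek1gof 4, and -0.04 to 0.07 without a control array. That of Double skin was -0.045 without Double 4, -0.10 without Double 3, -0.28 without Double 1 and -0.09 without control 4. These are descriptions of the lists and no test was made of them. In whole skin, fewer cells of a layer and less RNA per cell cannot be told apart.

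Among the early genes the keratins Krt1 and Krt77 had the widest differences, none of them past the threshold. Krt1, the type II keratin of the spinous layer, read 8.29, 6.77, 7.0 and 7.33 on control arrays 1 to 4, and 8.80, 8.53, 9.19 and 7.40 on the Shp2lof arrays. It read 7.63, 7.70, 6.15 and 6.59 in Mek1gof and 7.87, 6.63, 6.88 and 5.93 in Double skin. Shp2lof skin held the highest values, but all 4 groups overlapped. The difference from control was 1.13 ± 0.45 (SE, n = 4 per group) in Shp2lof, with an adjusted p of 0.222 by limma, and -0.33 ± 0.45 and -0.52 ± 0.45 in Mek1gof and Double skin.

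Krt1 came nearer to the threshold between mutants. Double minus Shp2lof was -1.65 ± 0.45 (adjusted p 0.0874 by limma), and Mek1gof minus Shp2lof was -1.46 ± 0.45 (adjusted p 0.110). Over the other settings the former ran from 0.0229 to 0.255 and passed in 5 of 20, and the latter ran from 0.0240 to 0.302 and passed in 5 of 20. With the slide as a term in the fit, both passed, at adjusted p-values of 0.0396 and 0.0473. Without Shp2lof 4 they were 0.0367 and 0.0420, without Shp2lof 3 they were 0.255 and 0.277, and without Double 1 the former was 0.0319. Krt10, the type I partner of Krt1, differed from control by 0.35, 0.02 and -0.24 in Shp2lof, Mek1gof and Double skin. Krt77, a suprabasal keratin singled out here after its values were seen, differed by 0.37, -0.42 and -0.91 ± 0.39 (adjusted p 0.190 by limma in Double skin). Krt2, the keratin of the upper spinous layer, was not detected.

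The other spinous genes differed from control by at most 0.51 on the log2 scale, and none passed the test. Calml3, a calmodulin-like protein of epithelia, read 9.12, 9.06, 9.21 and 9.38 on the control arrays and 8.87, 8.70, 8.88 and 8.80 on the Shp2lof arrays, so these groups did not overlap. It read 8.83, 9.43, 8.89 and 9.14 in Mek1gof and 9.12, 8.56, 8.65 and 9.42 in Double skin, across the range of both. The Shp2lof difference of -0.38 ± 0.18 had an unadjusted p of 0.0462 and an adjusted p of 0.307 by limma. Krtdap, Sbsn and Dmkn, secreted proteins of the differentiating layers, differed from control by between -0.51 and 0.36 in the 3 mutants. Sbsn was 1 of only 2 members, with Tgm5, whose level differed between the slides over all groups (slide 2 minus slide 1 -0.77, adjusted p 0.0334 by limma, against 0.938% of all genes past that threshold).

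The regulators of the switch to differentiation gave no call. Ovol1, a zinc finger repressor that helps cells leave the cycle, read 11.11, 11.17, 10.90 and 10.99 in control and 10.62, 10.71, 10.85 and 11.005 in Double skin. Its Shp2lof arrays read 10.96, 11.07, 10.82 and 10.95, and its Mek1gof arrays 11.15, 11.28, 10.64 and 11.09. The Double group reached lower than control but overlapped it, with a difference of -0.25 ± 0.14 (adjusted p 0.335 by limma). Grhl3, a grainyhead factor needed for barrier formation, differed by 0.05, -0.18 and -0.22.

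Desmosomes join the cells of these layers. Dsc1, the desmocollin of the upper epidermis, read 9.29, 8.91, 9.07 and 9.76 in control and 8.93, 8.84, 9.17 and 8.85 in Shp2lof skin. Its Mek1gof arrays read 9.22, 9.02, 9.20 and 9.01 and its Double arrays 9.07, 9.10, 9.03 and 9.10. The mutant arrays lay inside or just below the control range, and the largest difference was -0.31 ± 0.15 in Shp2lof (adjusted p 0.332 by limma).

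Cdsn, the corneodesmosin that glues the cornified cells together, read 13.29, 13.14, 13.29 and 13.38 in control, and 13.30, 13.64, 13.29 and 13.31 in Shp2lof skin. It read 13.69, 13.59, 12.97 and 13.25 in Mek1gof, and 13.48, 13.31, 13.31 and 13 in Double skin. All groups overlapped, and the Shp2lof difference was 0.11 ± 0.16 (adjusted p 0.797 by limma). A dimmer probe of the same gene gave -0.18 in Shp2lof and -0.62 ± 0.23 in Double skin (adjusted p 0.130 by limma over 14631 probes), where the brighter one gave 0.00, so the probes disagreed.

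None of the precursors of the cornified envelope passed the test. Lor, its main protein, differed from control by 0.19, 0.11 and -0.08 in Shp2lof, Mek1gof and Double skin, and Ivl, an early scaffold, by -0.18, 0.02 and 0.23. Cnfn, a small envelope protein, read 12.84, 12.82, 12.69 and 12.73 in control and 12.50, 11.72, 12.62 and 12.42 in Double skin, which lay wholly below it. It read 12.81, 12.53, 12.54 and 12.23 in Shp2lof, and 13.37, 13.05, 11.80 and 12.10 in Mek1gof, where the slide 1 arrays lay above control and the slide 2 arrays below. The Double difference was -0.45 ± 0.27 with an adjusted p of 0.362 by limma.

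Of the fused S100 proteins, which fill the granules and bind the keratin network, Rptn (repetin) is given in full. It read 9.56, 9.55, 8.90 and 9.65 in control and 10.58, 9.75, 10.39 and 9.90 in Mek1gof skin, with no overlap. It read 9.79, 9.95, 9.61 and 9.74 in Shp2lof and 10.18, 10.44, 9.24 and 8.70 in Double skin. The Mek1gof difference was 0.74 ± 0.30 (unadjusted p 0.0237, adjusted p 0.430 by limma), and a second probe gave 0.65 ± 0.24. Flg2 and Hrnr, relatives of filaggrin, differed from control by between -0.53 and 0.56 in the 3 mutants, with adjusted p-values of 0.371 or more by limma.

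The transglutaminases crosslink the envelope. Tgm5 read 7.01, 6.89, 6.54 and 6.66 in control and 8.18, 7.37, 7.25 and 6.70 in Mek1gof skin. It read 7.05, 6.94, 6.20 and 6.49 in Shp2lof and 7.59, 7.10, 5.89 and 6.48 in Double skin. In all 4 groups the slide 1 arrays were the higher pair, and the Mek1gof difference of 0.60 ± 0.32 had an adjusted p of 0.597 by limma. On a second probe of Tgm5 the Mek1gof arrays (6.67 to 7.03) lay wholly above the control arrays (5.93 to 6.33). Its difference was 0.58 ± 0.20, with an unadjusted p of 0.00781 and an adjusted p of 0.271 by limma over 14631 probes. Tgm1, the membrane-bound enzyme, differed by 0.06, 0.11 and -0.16, and Tgm3, which also acts in the hair follicle, by -0.22, -0.34 and 0.03.

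Late cornified envelope genes of the first cluster code for small proteins laid down in the last steps of cornification. Lce1g read 5.58, 5.30, 5.47 and 6.06 on control arrays 1 to 4. Its Shp2lof arrays read 6.46, 6.90, 6.90 and 6.39, all above the highest control array. It read 6.90, 6.13, 6.36 and 5.90 in Mek1gof and 6.66, 6.47, 5.63 and 5.29 in Double skin, both overlapping control.

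The Shp2lof difference of Lce1g was 1.06 ± 0.28 (SE, n = 4 per group), higher in 4 of 4 arrays than in any control array, with an adjusted p of 0.0487 by limma. This lies close to the threshold of 0.05, and in the same fit over all 14631 detected probes the adjusted p was 0.0532. Under the other settings the difference stayed between 0.63 and 1.24 and its adjusted p between 0.00705 and 0.156. Leaving out any single control or Shp2lof array other than control 4 raised the adjusted p above 0.05, to between 0.0663 and 0.156, and without control 4 it was 0.0422. Leaving out the 3 arrays with atypical sex-linked levels gave 1.15 with an adjusted p of 0.0509. It lay at 1.24 on slide 1 alone and at 0.88 on slide 2 alone. In Mek1gof the difference was 0.72 ± 0.28 and in Double skin 0.41 ± 0.28, with adjusted p-values of 0.383 and 0.415 by limma.

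Markers of other cells differed between the same groups as Lce1g, where 2.55% of all genes passed. The summed level of 7 dermal fibroblast markers ran from 34385 to 45030 in control and from 18591 to 29154 in Shp2lof skin, and 2 of the 7 fell, the collagen genes Col1a1 and Col1a2. The sum of 5 proliferation markers ran from 1358 to 1819 in control and from 2344 to 2776 in Shp2lof skin, and 2 of the 5 rose, Plk1 and Prc1. The sum of 6 hair shaft markers ran from 88936 to 98825 in control and from 70842 to 81496 in Shp2lof skin, with 0 of 6 past the threshold. Of 6 sebaceous markers 1 fell, the wax synthase Awat2, by 1.92 (SE 0.41, adjusted p 0.0178 by limma). The Schwann cell marker Mbp, the only 1 of its list tested, ran from 491 to 708 in control and from 235 to 320 in Shp2lof skin, and it did not pass. The sum of 8 basal keratinocyte markers overlapped between these groups, with 0 of 8 past the threshold. The part of these markers in the Lce1g difference was not tested.

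The other 5 Lce1 genes gave no call. In Shp2lof skin Lce1f and Lce1i had differences of 0.90 ± 0.43 and 0.93 ± 0.48, while Lce1b, Lce1c and Lce1m had 0.14, -0.01 and -0.30. In Double skin all 5 lay below control, between -0.83 (Lce1c, adjusted p 0.174 by limma) and -0.04 (Lce1i). Against Shp2lof all 6 Lce1 genes were lower in Double skin, by 0.30 to 1.12 on the log2 scale, with adjusted p-values of 0.216 or more by limma. Probe sequences were not used here, so signal shared between near copies such as Lce1g and Lce1i cannot be told apart from the signal of each gene.

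The Lce3 genes, which in human skin are known for their rise in wounds and psoriasis, had the largest differences of all members. Lce3b read 5.47, 5.92, 5.53 and 5.61 in control and 6.61, 7.31, 7.0 and 7.88 in Shp2lof skin. It read 5.38, 6.01, 7.87 and 8.41 in Mek1gof and 6.52, 7.55, 9.10 and 7.42 in Double skin. All Shp2lof and Double arrays lay above all control arrays, and of the Mek1gof arrays both on slide 2 stood well above control, while one on slide 1 lay below it and the other just above.

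The differences of Lce3b from control were 1.57 ± 0.56, 1.29 ± 0.56 and 2.02 ± 0.56 for these mutants in the same order, with adjusted p-values of 0.170, 0.466 and 0.0510 by limma. The last value misses the threshold narrowly. It was 0.0239 without Double 1, ran from 0.00562 to 0.140 over all other settings and passed in 6 of 20 of them, the fit with the slide as a term (0.0162) included. A dimmer probe of Lce3b was detected on 0 of 4 control arrays and on 4 of 4 arrays of both Shp2lof and Double skin. It met the detection filter only through the groups where it was high, so no test of it alone is given. The setting that averages the probes of a gene takes it in. That setting is among the 6 that passed (1.47, adjusted p 0.0282 by limma) and is not separate support.

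Lce3c, singled out after its values were seen, ran alongside. Its control arrays read 6.30, 6.80, 6.28 and 6.93, and its Shp2lof arrays 7.35, 8.12, 7.72 and 8.54. Its Mek1gof arrays read 6.36, 7.37, 9.30 and 9.81, and its Double arrays 7.49, 8.41, 10.11 and 8.30. The order of the arrays was much like that of Lce3b, with Double 3 highest and Mek1gof 1 at the level of control. The differences were 1.35 ± 0.60, 1.63 ± 0.60 and 2.00 ± 0.60, with adjusted p-values of 0.279, 0.367 and 0.0707 by limma. These are the most variable members, with SDs within groups of 0.95 (Lce3b) and 1.03 (Lce3c).

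**Figure D2:**
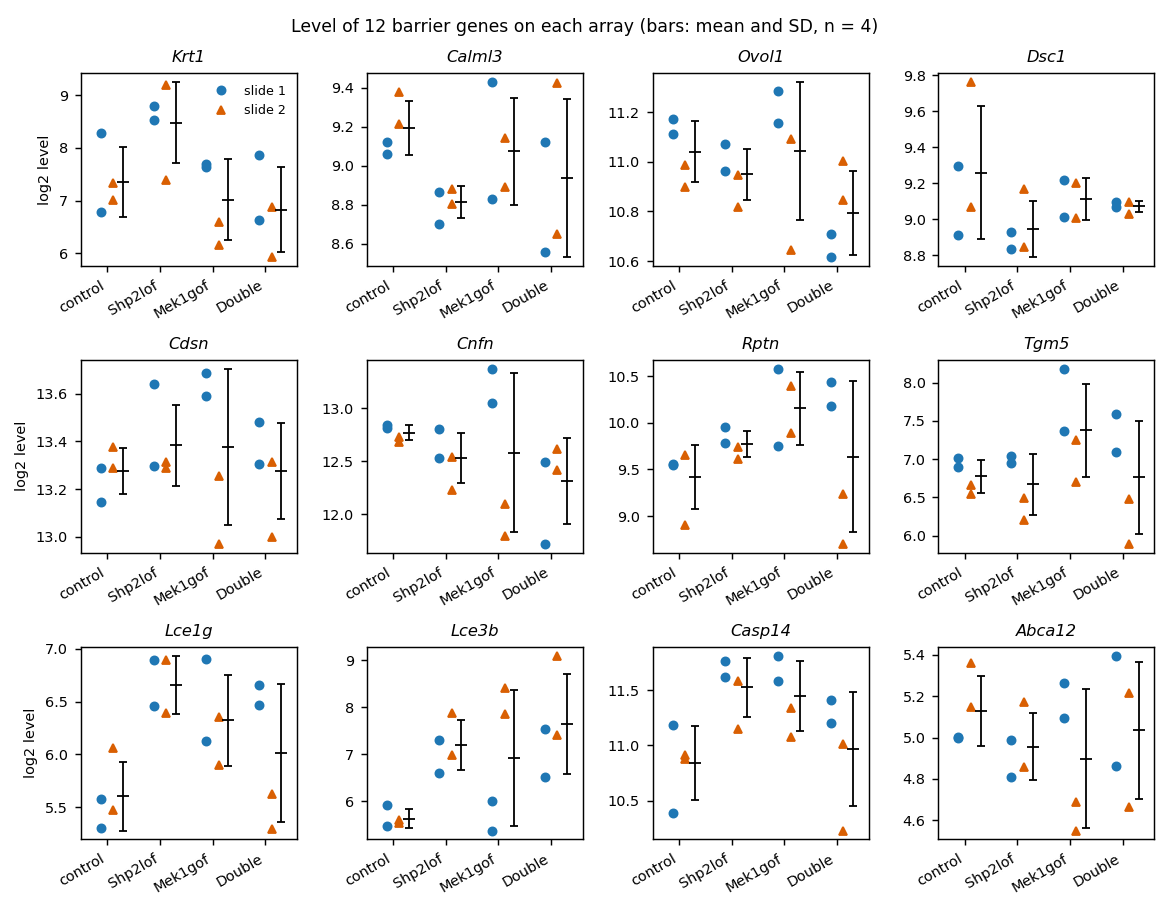
Log2 level (vertical axis, a separate scale for each gene) on each of the 16 arrays for 12 barrier genes, with circles for slide 1, triangles for slide 2, and bars for the mean and SD of 4 arrays. In Lce1g and Lce3b every Shp2lof array lies above every control array, and in Lce1g, Lce3b, Tgm5 and Cnfn the Mek1gof or Double arrays of slide 1 and slide 2 stand apart.

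The proteases were led by Casp14, a caspase of the cornifying cell that acts on filaggrin. It read 11.18, 10.38, 10.88 and 10.92 in control, and 11.77, 11.62, 11.58 and 11.15 in Shp2lof skin. It read 11.81, 11.58, 11.07 and 11.33 in Mek1gof and 11.21, 11.41, 11.01 and 10.23 in Double skin. In both single mutants only the lowest array fell within the control range, and the Double arrays overlapped control more widely. The single mutants had differences of 0.69 ± 0.24 (Shp2lof) and 0.61 ± 0.24 (Mek1gof), with adjusted p-values of 0.149 and 0.389 by limma. The Double difference was 0.12 ± 0.24, and the interaction of -1.17 ± 0.33 had an unadjusted p of 0.00245 and an adjusted p of 0.326. The kallikreins Klk5, Klk7 and Klk8 and the aspartic protease Asprv1 differed from control by between -0.39 and 0.24 in the 3 mutants.

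Among the lipid genes none came near the threshold over all arrays. Abca12, the transporter that loads lipids into lamellar bodies, was detected on 4 of 4 control arrays, 1 Shp2lof array, 2 Mek1gof arrays and 2 Double arrays, so its levels lie close to the background. Its control arrays read 5.0, 5.0, 5.36 and 5.15, and its Shp2lof arrays 4.81, 4.99, 4.86 and 5.17. Its Mek1gof arrays read 5.27, 5.09, 4.69 and 4.55, and its Double arrays 5.40, 4.86, 4.66 and 5.22. The groups overlapped, and the largest difference was -0.23 ± 0.18 in Mek1gof (adjusted p 0.746 by limma). Alox12b and Aloxe3, the lipoxygenases that prepare ceramides for the cornified envelope, differed from control by between -0.35 and 0.37.

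In all 3 mutant groups the members' median difference was above 0 on slide 1 and below 0 on slide 2. In Shp2lof skin it lay close to 0 on slide 2. On slide 1 alone, with 2 arrays a group, the members' median difference from control was 0.29 for Shp2lof, 0.34 for Mek1gof and 0.31 for Double skin, and on slide 2 alone it was -0.04, -0.29 and -0.47. In Double skin 27 of 36 members lay above control on slide 1 and 31 of 36 lay below it on slide 2. The medians of all genes stayed between 0.01 and 0.05 in these 6 comparisons. In control skin itself the median level of the members changed by 0.15 (slide 2 minus slide 1), with 24 of 36 higher on slide 2. Past the threshold were 0 of 36 members (0.0195% of all genes), and 3 had an unadjusted p below 0.05 (10.7% of all genes). These 3 were Lce1f (0.90), Hrnr (0.77) and Klk7 (0.47), all higher on slide 2. Such shifts of control enter the changes between slides given below.

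The difference between the slides was then fitted as a term of its own, a test chosen after these values had been seen. In Double skin the difference from control was lower on slide 2 than on slide 1 for 29 of 36 members, with a median of -0.88, and 11 of 36 passed limma's test at an adjusted p of 0.05, where 2.63% of all genes did. All 11 were lower on slide 2. In Mek1gof skin 31 of 36 members were lower on slide 2, with a median of -0.66, and 1 of 36 passed (0.684% of all genes). In Shp2lof skin 29 of 36 were lower, with a median of -0.32. There 0 of 36 passed (0.00977% of all genes), with 4 at an unadjusted p below 0.05 (5.93%). On unnormalized signals the Shp2lof median was -0.02, with 19 of 36 lower.

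The 11 genes were Krt10, Krtdap, Hrnr, Lce1b, Lce1c, Lce1f, Lce1i, Lce1m, Klk5, Alox12b and Aloxe3, all named for passing this added test. Lce1m read 13.92, 13.66, 11.98 and 11.80 on Double arrays 1 to 4, against 13.51, 12.92, 13.40 and 13.89 in control. Both slide 2 arrays thus lay below every control array, and the change of the difference between slides was -2.33 ± 0.35 (adjusted p 0.00833 by limma). Alox12b read 8.49, 8.19, 6.47 and 6.16 in Double skin against 7.94, 7.15, 7.68 and 7.92 in control, a change of -2.28 ± 0.41 (adjusted p 0.0130). Lce1f read 9.59, 9.49, 8.12 and 7.70 in Double and 10.49, 9.44, 8.74 and 8.75 in Mek1gof skin, against 8.75, 8.24, 9.05 and 9.75 in control. It was the only member to pass in both groups, with changes of -2.53 ± 0.44 and -2.12 ± 0.44.

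The count of 11 moves with single arrays, and the count over all genes, 269 of 10232, also moves (in brackets). It was 0 without control 4 (9), 1 without Double 4 (16), 3 without control 2 (98) and 3 without Double 1 (114). It was 6 without Double 3 (126), 7 without Double 2 (166), 8 without control 1 (106) and 16 without control 3 (521). On unnormalized signals it was 3 (38), and without background correction 14 (339). The median stayed between -1.10 and -0.72 when any of these arrays was left out, with 27 to 29 of 36 members lower. The Mek1gof count of 1 (70 of all genes) was 9 without Mek1gof 2 (313) and 1 without control 3 (92). It was 0 without any other control or Mek1gof array (0 to 17).

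Within slide 2, 14 of 36 members passed in Double against control, where 6.37% of all genes did. Lce3b (2.69 ± 0.44) and Lce3c (2.60 ± 0.48) were higher, and the 12 that were lower (3.78% of all genes were) were Krt10, Krt77, Krtdap, Sbsn, Flg2, Lce1b, Lce1c, Lce1f, Lce1m, Klk5, Alox12b and Aloxe3. Within slide 1 only Lce1g passed (1.12 ± 0.26, higher in Double skin; 4.79% of all genes passed). In Mek1gof against control Lce3b (2.57 ± 0.44) and Lce3c (2.95 ± 0.48) passed on slide 2 (1.89% of all genes) and no member on slide 1 (0.274%). Each of these fits has 2 arrays a group.

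**Figure D3:**
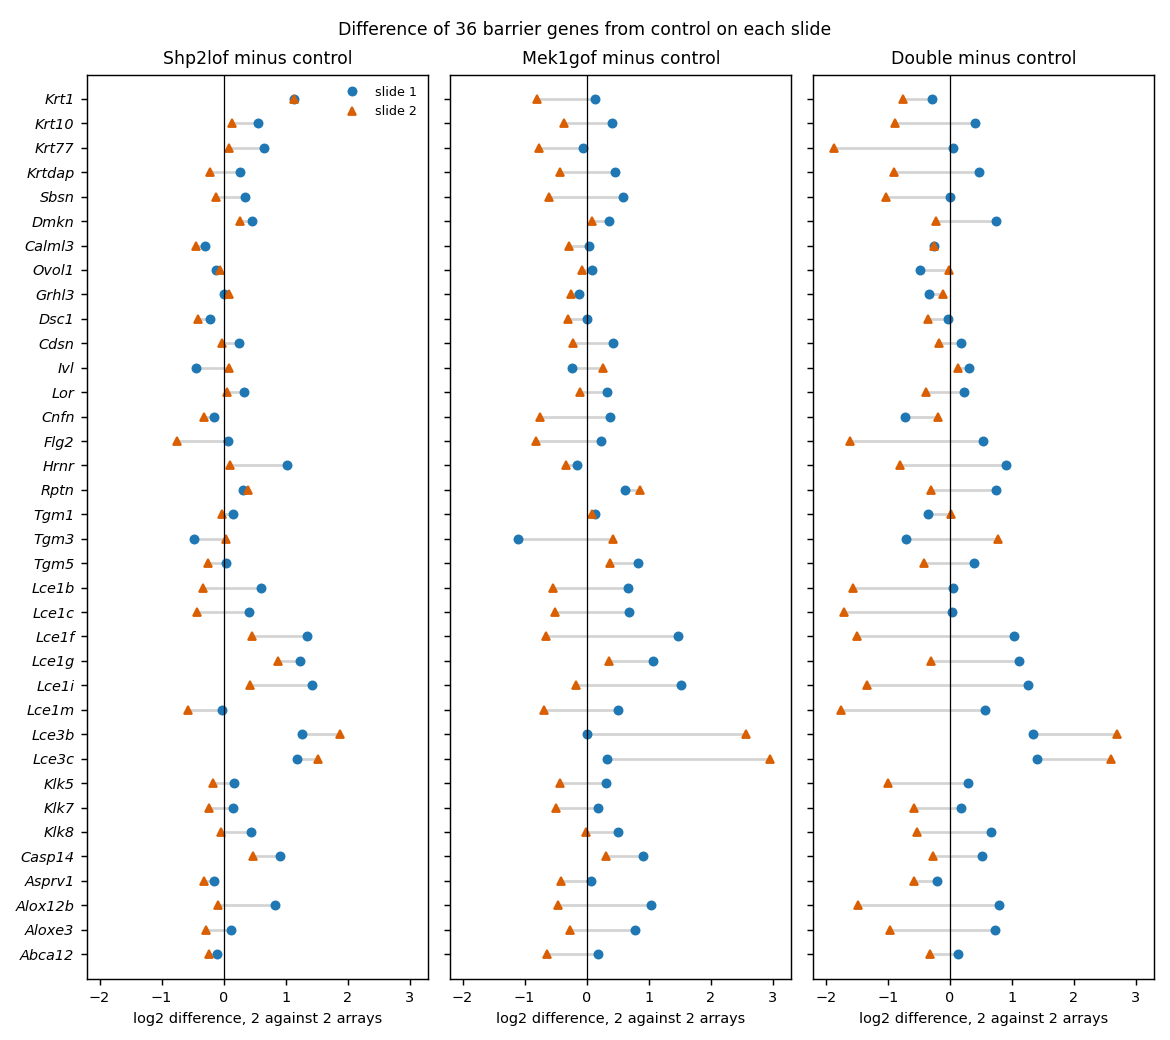
Log2 difference from control (horizontal axis) of the 36 tested barrier genes on slide 1 (circles) and slide 2 (triangles), 2 arrays against 2 on each, for Shp2lof, Mek1gof and Double skin. In Double skin 27 circles lie above 0 and 31 triangles below it, while Lce3b and Lce3c lie to the right of 0 on both slides.

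Other measures moved with the slide, in control and Shp2lof skin as well as in Double and Mek1gof skin. In control the summed level of 6 leukocyte markers ran from 4365 to 4446 on slide 1 and from 5625 to 6028 on slide 2. For Shp2lof skin it ran from 3302 to 3452 and then from 4954 to 5508. The sum of 7 dermal fibroblast markers was also higher on slide 2 in both groups. That of 5 inner root sheath markers was lower on slide 2 in control. In Double skin the summed level of 6 leukocyte markers ran from 4899 to 5480 on slide 1 and from 2801 to 3430 on slide 2, and that of 8 basal keratinocyte markers from 41856 to 49761 and from 37587 to 38289. The sum of 6 hair shaft markers ran the other way, from 74708 to 78275 on slide 1 and from 99243 to 100359 on slide 2. So did those of 5 inner root sheath markers, from 67363 to 71120 and then from 84207 to 87969, and of 7 skeletal muscle markers, from 15165 to 17201 and then from 23298 to 39951. Of the single markers Krt35 passed the test of the change between slides with a higher difference on slide 2 in Double skin, and Col17a1, Awat2, Cd3e and Cpa3 passed with a lower one. In Mek1gof skin the basal keratinocyte sum ran from 50838 to 51575 on slide 1 and from 39780 to 40151 on slide 2. The skeletal muscle sum there ran from 44446 to 50883 and then from 24943 to 27714, and that of 5 proliferation markers from 899 to 1584 and then from 1982 to 2460. Birc5 of the proliferation list and Dct of the melanocyte list passed the test of the change in Mek1gof skin, both with a higher difference on slide 2. Xist, given above, was also high on slide 1 and low on slide 2 in Double and Mek1gof skin, so slide and Xist level cannot be told apart there. The Y-linked Eif2s3y went with the slide in Mek1gof skin (5.10 and 6.77, then 10.58 and 10.80). In Double skin it read 4.64 and 4.31 on slide 1 and 10.63 and 4.39 on slide 2. The part of these markers in the result was not tested.

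**Figure D4:**
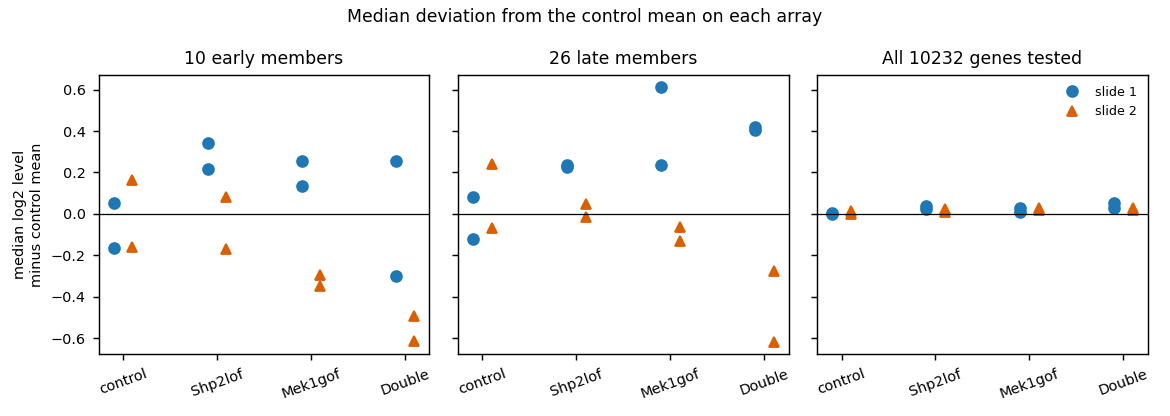
Median, over the 10 early barrier genes, the 26 late barrier genes and all 10232 genes, of the log2 level minus the mean of the control arrays (vertical axis), for each array by group, with circles for slide 1 and triangles for slide 2. The 2 Double arrays of slide 2 lie between -0.28 and -0.62 for both sets of barrier genes, the control arrays between -0.17 and 0.24, and all genes near 0.

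Further genes of the barrier pathway were read in lists of junction and envelope proteins (28 tested), barrier lipid enzymes (15 tested) and regulators (24 tested). In Shp2lof against control, where 2.55% of all genes passed, 0 of the 28 structural genes and 0 of the 15 lipid genes did. Among the 24 regulators 1 rose and 1 fell. Elf3, an ETS factor of differentiating epithelium, rose 3.44-fold (1.78 ± 0.24, adjusted p 0.000356 by limma), and Rora, a nuclear receptor of keratinocytes, fell by 0.63 on the log2 scale (SE 0.14, adjusted p 0.0209). Elf3 passed under all 20 other settings, with adjusted p-values up to 0.0468, but its difference was smaller by over 1.5 times under 4 of them. It was 0.995 without background correction, 1.04 on unnormalized signals, 1.10 with an offset of 50 and 1.16 with the mean of its probes. Rora in Shp2lof skin passed under 12 of 20, and its adjusted p was between 0.0525 and 0.0827 without control 1, control 2, Shp2lof 2 or Shp2lof 4.

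In Mek1gof against control 0 of these genes passed (0.508% of all genes). At an unadjusted p below 0.05 there were 0 structural, 4 lipid and 1 regulator genes (9.54% of all genes). In Double against control, where 3.88% of all genes passed, 2 of the 28 structural genes fell. These were Krt80 by 0.54 (SE 0.13, adjusted p 0.0230 by limma) and Cldn4, a tight junction claudin, by 0.44 (SE 0.11, adjusted p 0.0394). Of the lipid genes 1 of 15 rose, the fatty acid transporter Slc27a4, by 0.55 ± 0.14 (adjusted p 0.0359), and of the regulators 1 of 24 fell, Rora, by 0.86 (SE 0.14, adjusted p 0.00363). Rora passed there under all 20 other settings, Krt80 under 13, Slc27a4 under 11 and Cldn4 under 9. Krt80 lost its call without control 1, 2 or 3 (adjusted p up to 0.0792). Slc27a4 lost it without any of control 1 to 3 and Double 1 to 3 (up to 0.107), and Cldn4 without any of control 2 to 4 and Double 1 to 3 (up to 0.108). Elf3 was lower in Double than in Shp2lof skin by 1.67 on the log2 scale (difference -1.67 ± 0.24, adjusted p 0.00114 by limma), and lower in Mek1gof than in Shp2lof skin (-1.74 ± 0.24, adjusted p 0.000347).

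Markers of other cells also differed in Mek1gof and Double skin, where 0.508% and 3.88% of all genes passed against control. Elovl3, a fatty acid elongase of the sebaceous gland, rose by 1.42 ± 0.19 in Mek1gof (adjusted p 0.00171 by limma) and by 1.23 ± 0.19 in Double skin (adjusted p 0.00341), the only 1 of 6 sebaceous markers to pass in each. In Double skin 1 of 6 hair shaft markers fell, the desmoglein Dsg4, by 0.95 (SE 0.19, adjusted p 0.0124), and 7 of 7 skeletal muscle markers fell. Mylpf, Actn3, Ckm and Myh4, genes of muscle contraction and its energy supply, had the smallest p-values of these and fell by 1.25, 1.51, 1.45 and 2.05. The muscle sum ran from 15165 to 39951 in Double skin against 38640 to 60816 in control. The part of these markers in the results above was not tested.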

How the data were processed

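RNA of 16 skin samples was read on 1-colour Illumina bead arrays. The authors deposited a mean bead intensity and a detection p-value per probe, summarised with GenomeStudio per the submitters' processing notes. The other deposited table repeats these intensities with fewer decimals (largest difference 0.05). Signals were corrected with limma's neqc (version 3.58.1 in R 4.3.3; offset 16) from the detection p-values, quantile-normalized and put on the log2 scale. Of 25697 probes, 14631 (56.9%) had a detection p below 0.05 on at least 4 arrays. Platform annotation gave 1 symbol for 23978 probes and none for 1719, and 23962 were updated through gene identifiers. The brightest probe stood for a gene, by mean level. Group means were estimated over the 16 arrays together (limma's lmFit and eBayes; 12 residual degrees of freedom), with Benjamini-Hochberg adjustment over 10232 genes, in 7 comparisons. The number of arrays limits the precision. Scripts were tested on simulated data.

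The members and lists were chosen with earlier results of these data known. Array values are given for members past the threshold and, in role groups with none, for the member with the smallest unadjusted p against control. Genes outside the members were named from the lists where they passed against control, at most the 4 with the smallest p per list, and where they passed the slide difference fit. The slide difference fit was added after the values were seen. Alternatives covered the background correction, normalization, detection filter, probe choice, arrays in the fit, slide, replicate number and single arrays. Promoters were aligned with Biopython 1.88.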

Additional observations from a re-analysis of the deposited data

Results flagged for a closer look

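In 5 of 144 groups of 4 arrays (3.47%) 1 array stood far from the others, where chance alone flags about 1 group in 20. Krt77 read 9.09 on Mek1gof 1, with the nearest array of the group at 8.28. Dmkn read 14.18 on Mek1gof 1, with the nearest at 13.79. Cdsn read 13.64 on Shp2lof 2, with the nearest at 13.31. Rptn read 8.90 on control 3, with the nearest at 9.55, and Klk8 read 10.63 on control 4, with the nearest at 10.12.

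The difference from control changed between the slides, by limma's test of the change itself (slide 2 minus slide 1), for 11 genes in Double skin. The keratin Krt10 changed by -1.28 and the spinous gene Krtdap by -1.37 on the log2 scale. Hrnr, a fused S100 gene, changed by -1.70. Among the Lce1 genes the change was -1.60 for Lce1b, -1.74 for Lce1c, -2.53 for Lce1f, -2.60 for Lce1i and -2.33 for Lce1m. The protease Klk5 changed by -1.29, and the lipoxygenases Alox12b and Aloxe3 by -2.28 and -1.69. In Mek1gof skin Lce1f changed by -2.12. Slide and Xist level differ together in these groups and cannot be told apart. Eif2s3y also went with the slide in Mek1gof skin, but in Double skin it did not, being low on Double 4 (4.39) as on slide 1.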

How the results depend on the processing

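Of the 36 barrier genes, 1 passed in Shp2lof against control over all arrays. Brackets after a member count hold the count over all 10232 genes in the same fit, which was 261 here. The member count was 0 with an offset of 50 (283), without background correction (285) and on unnormalized signals (149). It was 0 without the detection filter (201 of 16593), on slide 1 alone (108) and on slide 2 alone (175). Without Shp2lof 4, Mek1gof 2 and Double 4 it was 0 (138), and with only the groups compared it was 3 (408). Leaving out each array in turn gave 0 to 1 (130 to 237). In Mek1gof against control the count of 0 (52) became 2 on slide 2 alone (193). In Double against control the count of 0 (397) became 1 with the mean of a gene's probes (382). That gene was Lce3b, whose mean takes in the dimmer probe described above. The count became 2 with only the groups compared (257) and 2 with the slide as a block (516). It was 1 on slide 1 alone (490) and 14 on slide 2 alone (652). Without single arrays it was 0 to 4 (136 to 492), with 4 without Double 1 (492). Double against Shp2lof went from 0 (99) to 2 on unnormalized signals (178), 1 with the slide as a block (158) and 11 on slide 2 alone (277). Without single arrays it was 0 to 3 (56 to 135), with 3 without Double 1 (135) and 1 without Shp2lof 4 (99). Double against Mek1gof went from 0 (29) to 3 on slide 2 alone (76). Mek1gof against Shp2lof went from 0 (282) to 1 on unnormalized signals (286), with the slide as a block (324) and on slide 1 alone (236). It was also 1 without the 3 arrays together (118) and without Shp2lof 4 (186), and 0 to 1 over single arrays (160 to 229). The interaction gave 0 under every setting (5 to 36). The change between slides gave 3 in Double skin on unnormalized signals (38) and 0 to 16 without single arrays (9 to 521). In Mek1gof skin it gave 0 on unnormalized signals (2) and 0 to 9 without single arrays (0 to 313). The cause of these changes was not tested. The single-slide and left-out fits also hold fewer arrays, and the part of this was not tested. Signs were followed for 64 differences only, chosen by their p-values in the main fit. Among these, signs turned for Cdsn in Shp2lof (-0.038 with the mean of probes, -0.034 on slide 2 alone) and Abca12 in Mek1gof (0.18 on slide 1 alone). In Double skin on slide 1 alone they turned for Krt77 (0.057), Lce1b (0.048) and Lce1c (0.035). Over all members more signs turned there, with 10 of 36 above control over all arrays and 27 of 36 on slide 1 alone. No label pairs the arrays of one replicate number. Their deviations correlated between -0.23 and 0.38, with a mean of 0.07, against 0.02 for arrays of the same slide with another number. Among the 4 numbers, 10 of 16 arrays correlated best with their own. Whether they pair was not tested. With the replicate block the counts against control were 0 in Shp2lof (284) and 2 in Double skin (464). They were 1 in Double against Shp2lof (131) and 1 in Mek1gof against Shp2lof (269). Genes near background, such as Abca12, have differences that background correction compresses or stretches.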
